A study of Mus musculus with 5 samples.

Results

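Transcripts of 9 genes that answer to TGF-beta, activin or YAP signalling were followed in fat cells grown from the mouse mesenchymal line C3H10T1/2. The genes were Ccn1, Ccn2, Ankrd1, Fst, Smad3, Smad6, Smad7, Skil and Vgll4, and every probe set whose platform annotation names exactly 1 of them was taken. That gave 18 of the 45037 probe sets on the arrays, for 9 of the 18193 genes named by a single-gene probe set. Fully differentiated cells were exposed for 6 h to butein, to sulfuretin, to resveratrol or to solvent only, and the RNA of each of the 5 groups was hybridised to 1 Affymetrix array. The solvent array DMSO was the control of butein and sulfuretin, and the labels pair resveratrol with a separate solvent array, DMSO1. Doses are not stated in the labels. All groups were of the same cell line, and the labels name no genetic change. With 1 array per group no error can be attached to a difference and no test was possible within a comparison, so a difference cannot be told apart from one between cultures or hybridisations.

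TGF-beta and activins bind paired serine/threonine kinase receptors, which phosphorylate receptor SMADs such as Smad3. These enter the nucleus with Smad4 and switch on genes that include the brakes of the pathway, the inhibitory SMADs Smad6 and Smad7 and the co-repressor Skil. Follistatin, the product of Fst, binds activins outside the cell. YAP and TAZ are co-activators that the Hippo kinases keep out of the nucleus; bound to TEAD proteins they drive the matricellular genes Ccn1 and Ccn2 and the ankyrin repeat gene Ankrd1, and Vgll4 competes with them for TEAD. In mesenchymal precursors TGF-beta, activin and YAP activity is known to hold back fat cell formation.

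RefSeq promoter windows, of 250 bases before to 50 bases after a transcript start on GRCm38.p6, were found for 5 of the 9 genes, Ccn1, Ankrd1, Smad3, Smad6 and Vgll4. Of these, 4 are shown from 250 bases before to 10 bases after the start, 5' to 3', because they hold motifs of the factors after which the gene group is called: Ccn1 (chr3:145649976-145650235, minus strand), Ankrd1 (chr19:36119835-36120094, minus strand), Vgll4 (chr6:114969194-114969453, minus strand) and Smad6 (chr9:64022050-64022309, minus strand). For Vgll4 and Smad6 the start used in the table lies inside the annotated gene. Capitals mark matches on either strand to the TEAD motif GGAATG, the SMAD motif CAGAC, the NRF2 motif TGACNNNGC or the SMAD palindrome GTCTAGAC; the AP-1 motif TGANTCA and the CArG box of SRF were searched for too and have no match in the 5 windows.
Ccn1: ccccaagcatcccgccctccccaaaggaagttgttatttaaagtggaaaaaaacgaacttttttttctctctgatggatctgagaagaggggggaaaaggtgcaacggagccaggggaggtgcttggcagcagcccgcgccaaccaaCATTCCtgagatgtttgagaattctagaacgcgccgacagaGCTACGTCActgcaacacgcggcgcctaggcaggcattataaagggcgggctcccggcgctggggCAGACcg
Ankrd1: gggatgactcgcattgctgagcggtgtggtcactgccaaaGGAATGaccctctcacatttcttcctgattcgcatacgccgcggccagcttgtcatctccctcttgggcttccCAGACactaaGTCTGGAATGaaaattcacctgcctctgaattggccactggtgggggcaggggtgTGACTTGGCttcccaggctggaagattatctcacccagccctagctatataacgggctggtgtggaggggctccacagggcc
Vgll4: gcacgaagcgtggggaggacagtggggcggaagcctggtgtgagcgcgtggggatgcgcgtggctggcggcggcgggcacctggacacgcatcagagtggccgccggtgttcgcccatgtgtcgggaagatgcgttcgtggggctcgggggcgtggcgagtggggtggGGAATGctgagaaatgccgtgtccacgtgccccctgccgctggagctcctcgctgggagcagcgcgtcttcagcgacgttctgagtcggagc
Smad6: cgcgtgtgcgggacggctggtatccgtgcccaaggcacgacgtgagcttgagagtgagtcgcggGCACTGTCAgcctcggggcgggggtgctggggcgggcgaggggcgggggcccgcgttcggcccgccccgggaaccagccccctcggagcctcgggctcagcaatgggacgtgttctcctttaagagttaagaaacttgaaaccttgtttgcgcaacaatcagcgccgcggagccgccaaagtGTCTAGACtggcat

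Positions are counted from the first transcribed base as 1, with negative numbers before it and no 0. The TEAD motif was present in 3 of the 5 windows. Ccn1 holds it in a single copy on the strand opposite to the one shown, from base -103 to -98, and Ankrd1 holds 2 copies, from -210 to -205 and from -123 to -118. Vgll4, whose product itself binds TEAD, has 1 copy from -82 to -77. Of all 32851 promoter windows in the table, 14.7% hold GGAATG on either strand. The SMAD motif CAGAC lies at 4 to 8 bases after the Ccn1 start, and Ankrd1 has it from -137 to -133 and, on the opposite strand, from -127 to -123, where its last base is also the first base of a TEAD match. This short motif is in 49.6% of all windows. The palindrome GTCTAGAC spans the Smad6 start, from -4 to 4, and is in 0.213% of windows; it was added to the search after the Smad6 sequence had been seen. The NRF2 motif, in 12.4% of windows, matched in Ccn1 (-62 to -54), Ankrd1 (-72 to -64) and Smad6 (-186 to -178 and 29 to 37). The AP-1 motif is in 7.81% and the CArG box in 1.63% of all windows. These matches describe letters in a window, and factor binding was not measured.

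**Figure D1:**
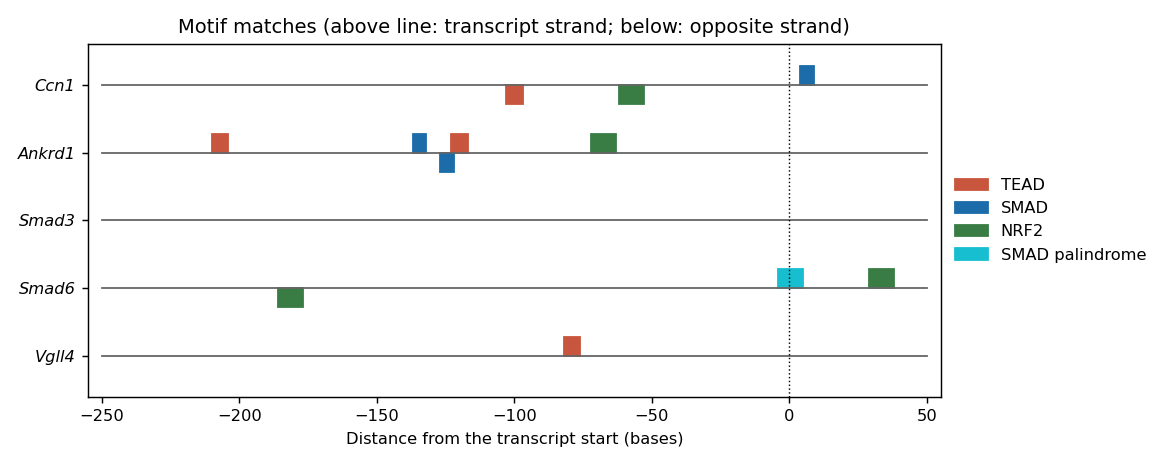
Motif matches in the 5 promoter windows, plotted as distance in bases from the transcript start (dotted line), with matches on the strand shown above each line and matches on the opposite strand below it. TEAD matches appear in Ccn1, Ankrd1 and Vgll4, and Smad3 has no match to any motif searched.

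The arrays fell into 2 sets by their scale. The median probe set intensity was 6.85 on DMSO, butein and sulfuretin, 11.1 on DMSO1 and 11.5 on resveratrol, and each treatment was therefore compared within its own set. A difference was called at 2-fold, a log2 difference of 1, where the higher of the values reached a floor of 8.39, the median intensity of all probe sets over the arrays. Adipocyte identity was clear on all 5 arrays, since 7 of 8 adipocyte markers were above the floor, with Fabp4 between 7338 and 9340 and Adipoq between 6122 and 7202; Lep was below the floor throughout. Markers of fibroblasts were present as well (7 of 8 above the floor; summed intensity 14830 to 16183), with Dlk1, the preadipocyte factor, below it. The muscle regulators Myod1 and Myog, the leukocyte marker Ptprc and the bone marker Ibsp were below the floor on every array. Of 9 muscle markers 3 to 4, of 6 macrophage and blood cell markers 2 to 4 and of 5 cartilage and bone markers 3 reached it, with summed intensities of 117 to 280, 54.4 to 95.2 and 127 to 178. In RNA from a whole culture, fewer cells of a type and less RNA per cell cannot be told apart.

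Ccn1 and Ccn2, the matricellular YAP targets, were higher with resveratrol than in DMSO1, and Ccn2 was lower with butein and with sulfuretin than in DMSO. The probe set of Ccn2 (1416953_at, NCBI gene 14219) read 248 in DMSO, 148 with butein, 158 with sulfuretin, 139 in DMSO1 and 325 with resveratrol. Resveratrol gave the highest value of the 5 arrays and DMSO1 the lowest. The log2 difference was 1.22 (2.33-fold) for resveratrol, past the criterion, and -0.74 for butein and -0.65 for sulfuretin, both short of it. In the resveratrol comparison Ccn2 ranked 4 from the top among 25547 probe sets at or above the floor. After the 5 arrays were quantile normalized together, DMSO1 was below DMSO by a log2 difference of -1.28 for this probe set, about as wide as the resveratrol difference, and resveratrol against DMSO came to 0.03. With DMSO1 as control the butein and sulfuretin differences had the opposite sign. They were 0.08 and 0.18 on the deposited scale, and 0.57 and 0.66 after joint quantile normalization.

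Ccn1 (NCBI gene 16007), which encodes a secreted matrix protein that signals through integrins, has 4 probe sets, and all 4 were higher with resveratrol than in DMSO1, by 1.74-fold to 2.03-fold. The brightest, 1416039_x_at, read 211 in DMSO, 287 with butein, 169 with sulfuretin, 119 in DMSO1 and 224 with resveratrol. On 1438133_a_at the values were 76.3, 116, 71.1, 70.6 and 143 in the same order, and this was the 1 probe set of Ccn1 past the criterion, at a log2 difference of 1.02 for resveratrol. That call was lost with a pseudocount of 16 (0.88), with DMSO as control (0.91) and with the mean of both solvent arrays as control (0.97). Butein was highest in the first set of arrays and resveratrol stood above DMSO1 on both of these probe sets.

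The dimmer probe sets of Ccn1 were 1442340_x_at, with 17.1, 18.4, 12.3, 19.8 and 34.4, and 1457823_at, with 12.4, 11.2, 9.92, 18.4 and 35.8. Their resveratrol differences were 0.80 and 0.96. With butein the 4 probe sets differed in sign, at 0.44, 0.61, 0.10 and -0.15 from the brightest to the dimmest. With sulfuretin all 4 were lower, between -0.48 and -0.10, none past the criterion. Probe sets ending in _x_at can hold probes that match other transcripts, and the same resveratrol direction was seen on the 2 Ccn1 probe sets without that ending. The solvent arrays differed here too: after joint quantile normalization DMSO1 was below DMSO on all 4, by log2 differences of -1.31 to -0.33. Resveratrol against DMSO was then -0.32 on 1416039_x_at, the opposite sign, and 0.41, 0.12 and 0.63 on the other 3, from the brighter to the dimmer.

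Ankrd1 (NCBI gene 107765), a YAP target best known from heart muscle, was not detectable above the floor. Its probe set 1420992_at read 3.99 in DMSO, 3.99 with butein, 3.70 with sulfuretin and 4.10 in both DMSO1 and resveratrol. On 1420991_at the first 3 arrays all read 3.78 and the last 2 both read 2.72. Values equal to within 1e-06 on the log2 scale were common. Over all probe sets, those below the floor included, they made up 48.5% for butein, 47.4% for sulfuretin and 52.0% for resveratrol. Among probe sets at the floor the shares were 26.2%, 29.4% and 36.4%. Of the 3 YAP target genes, Ankrd1 therefore gives no difference to set beside those of Ccn1 and Ccn2.

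Vgll4 (NCBI gene 232334), the TEAD-binding competitor of YAP, was lower with butein and with sulfuretin. Its probe set 1455992_at read 134 in DMSO, 59.3 with butein, 65.6 with sulfuretin, 234 in DMSO1 and 192 with resveratrol. Both treated arrays of the first set lay below their solvent array, by log2 differences of -1.18 (2.26-fold) for butein and -1.03 (2.04-fold) for sulfuretin. Resveratrol was 1.22-fold below DMSO1, inside the criterion. For sulfuretin this was the 13th lowest difference among 20108 probe sets. It lay close to the criterion and became -0.98 when the arrays were quantile normalized together.

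**Figure D2:**
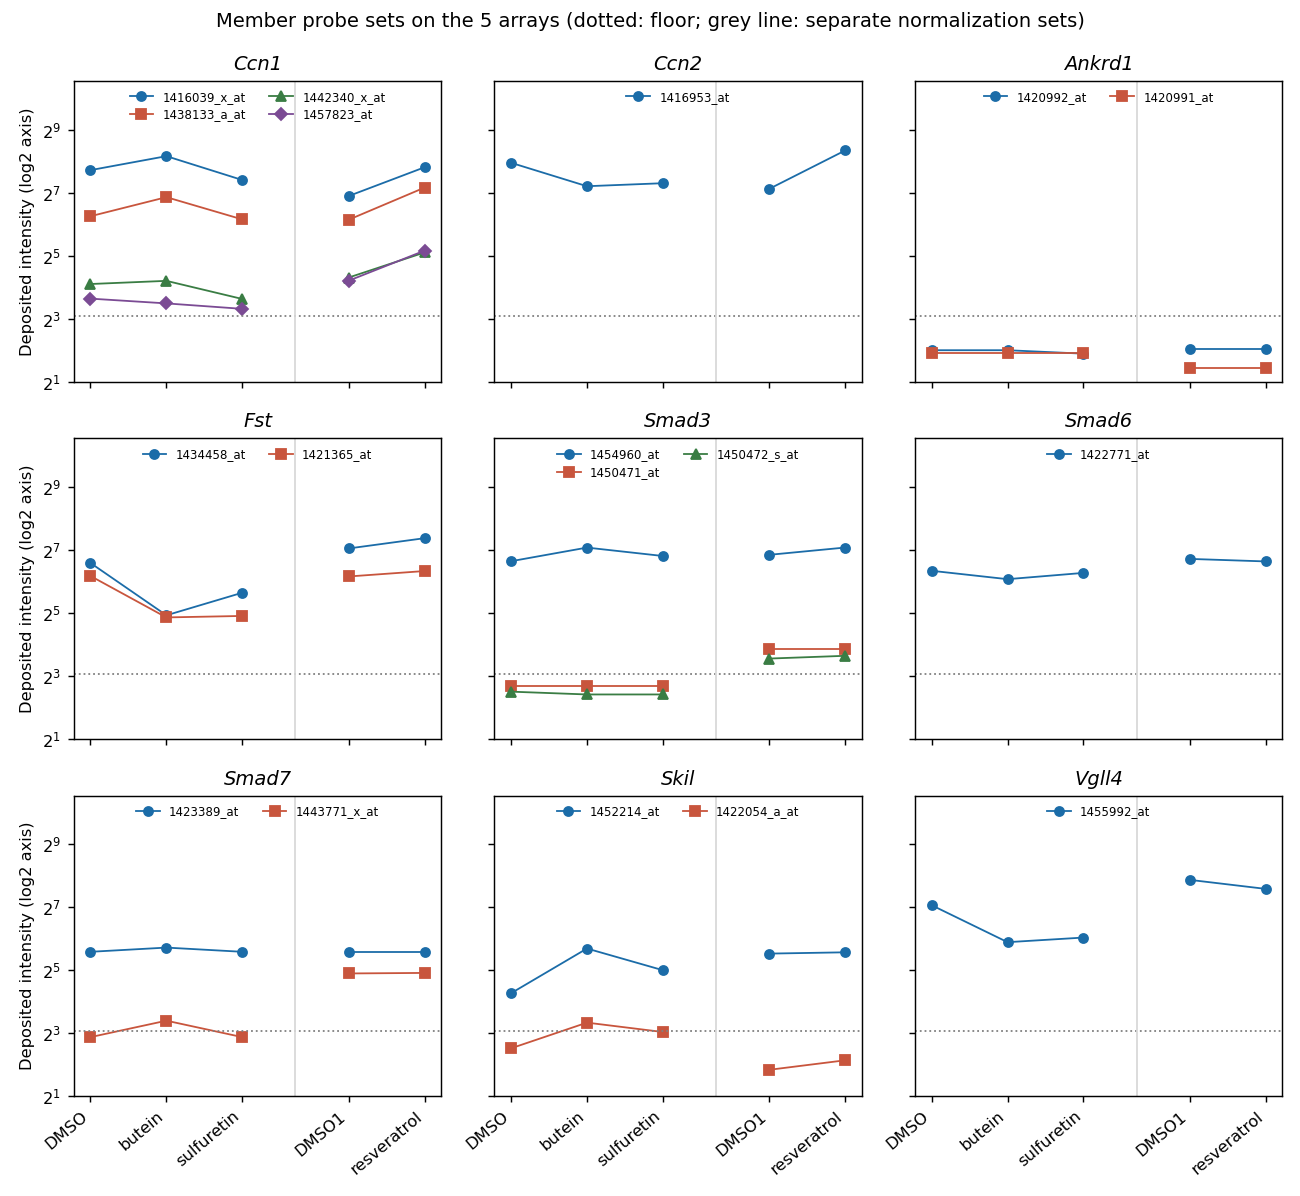
Deposited intensity (log2 axis) of all 18 probe sets of the 9 genes on the 5 arrays. Lines join arrays of 1 set by scale and the dotted line is the floor of 8.39. The sets, called normalization sets in the title, were read from the scale of the arrays and are not named in the labels. Fst and Vgll4 dip with butein and sulfuretin, Skil peaks with butein within its set, Ccn1 and Ccn2 are higher with resveratrol than in DMSO1, and Ankrd1 stays below the floor.

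Fst (NCBI gene 14313), the gene of the activin antagonist follistatin, was lower with butein and with sulfuretin on both of its probe sets. On 1434458_at it read 96.2 in DMSO, 30.4 with butein, 49.97 with sulfuretin, 132 in DMSO1 and 166 with resveratrol. Butein was the lowest and sulfuretin the next lowest of the 5 arrays. The log2 differences were -1.66 (3.17-fold) for butein, past the criterion, and -0.95 (1.93-fold) for sulfuretin, just short of it.

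On the other probe set of Fst, 1421365_at, the values were 72.2, 29.0, 30.0, 71.4 and 80.5 in the same order. Here both solvent arrays and resveratrol lay above 71 and both other treatments at 30 or below. Butein differed by -1.32 (2.49-fold) and sulfuretin by -1.27 (2.41-fold), and the latter ranked 5 from the bottom among 20108 probe sets. With resveratrol the differences were 0.33 and 0.17, on the first and second probe set. Butein and sulfuretin share the DMSO array, and its part in both differences was not tested. Against DMSO1 after joint quantile normalization 1421365_at differed by -0.60 for butein and -0.56 for sulfuretin, and both calls were lost.

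Among the SMAD genes no probe set passed the criterion with any compound. Smad3 (NCBI gene 17127), the receptor SMAD of TGF-beta and activin, read 99.97 in DMSO, 135 with butein, 112 with sulfuretin, 115 in DMSO1 and 135 with resveratrol on its brightest probe set, 1454960_at. All 3 treated arrays lay above their solvent array, by log2 differences of 0.43, 0.17 and 0.23. The dimmer probe sets 1450471_at (6.42 on each array of the first set, 14.4 on both of the second) and 1450472_s_at (5.31 to 5.65, and 11.7 to 12.4) were below the floor in the first set and above it in the second.

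On their brighter probe sets the inhibitory SMADs differed little from their own solvent arrays. Smad6 (NCBI gene 17130), which mainly restrains BMP signals, read 81.0, 67.3, 77.3, 105 and 99.5 on DMSO, butein, sulfuretin, DMSO1 and resveratrol (1422771_at). Each treated array was slightly below its solvent array, by log2 differences of -0.27, -0.07 and -0.08. Smad7 (NCBI gene 17131), which blocks TGF-beta receptors and is itself an early target of the pathway, read 48.0, 52.6, 48.0, 48.1 and 48.1 on 1423389_at. Butein exceeded DMSO by a log2 difference of 0.13, and the other treated arrays equalled their solvent arrays, a kind of tie common over all probe sets. After joint quantile normalization the second set lay lower, with DMSO1 at -0.75 from DMSO. Its other probe set, 1443771_x_at, read 7.32, 10.5, 7.32, 29.8 and 30.1, so only butein reached the floor in the first set, at a log2 difference of 0.52.

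Skil (NCBI gene 20482), which encodes the SMAD co-repressor SnoN, was higher with butein. Its brighter probe set 1452214_at read 19.3 in DMSO, 51.6 with butein, 31.97 with sulfuretin, 46.1 in DMSO1 and 47.4 with resveratrol. Butein exceeded DMSO by a log2 difference of 1.42 (2.68-fold), sulfuretin by 0.73 (1.66-fold), and resveratrol exceeded DMSO1 by 0.04. The dimmer probe set 1422054_a_at read 5.72, 10.1, 8.19, 3.56 and 4.39 and reached the floor with butein alone. The order DMSO, sulfuretin, butein was the same on both. DMSO was however the lowest array for 1452214_at: with DMSO1 as control the butein difference was 0.16 on the deposited scale and 0.86 after joint quantile normalization.

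Counted over the 9 genes, butein had 4 member probe sets past 2-fold, Skil higher and Vgll4 and both Fst probe sets lower, of 14 at the floor; over all probe sets at the floor 2.27% were past it upward and 0.576% downward. Sulfuretin had 2 of 12, Vgll4 and 1 Fst probe set, both lower, against 0.0746% of all probe sets past it downward. Resveratrol had 2 of 15, Ccn2 and 1 Ccn1 probe set, both higher, against 0.0587% of all past it upward. Counted by gene and in either direction, the shares over all genes were 0.283% with sulfuretin and 0.147% with resveratrol. The members were chosen with earlier results of these arrays known, so these shares are a description and nothing was inferred from them. The median log2 difference of members at the floor was 0.12 with butein, -0.32 with sulfuretin and 0.17 with resveratrol, where the median of all probe sets at the floor was 0 in each. Several probe sets of 1 gene enter these medians, 4 of them from Ccn1. Between the solvent arrays after joint quantile normalization 12.4% of all probe sets were past 2-fold, a larger share than in any treatment comparison.

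**Figure D3:**
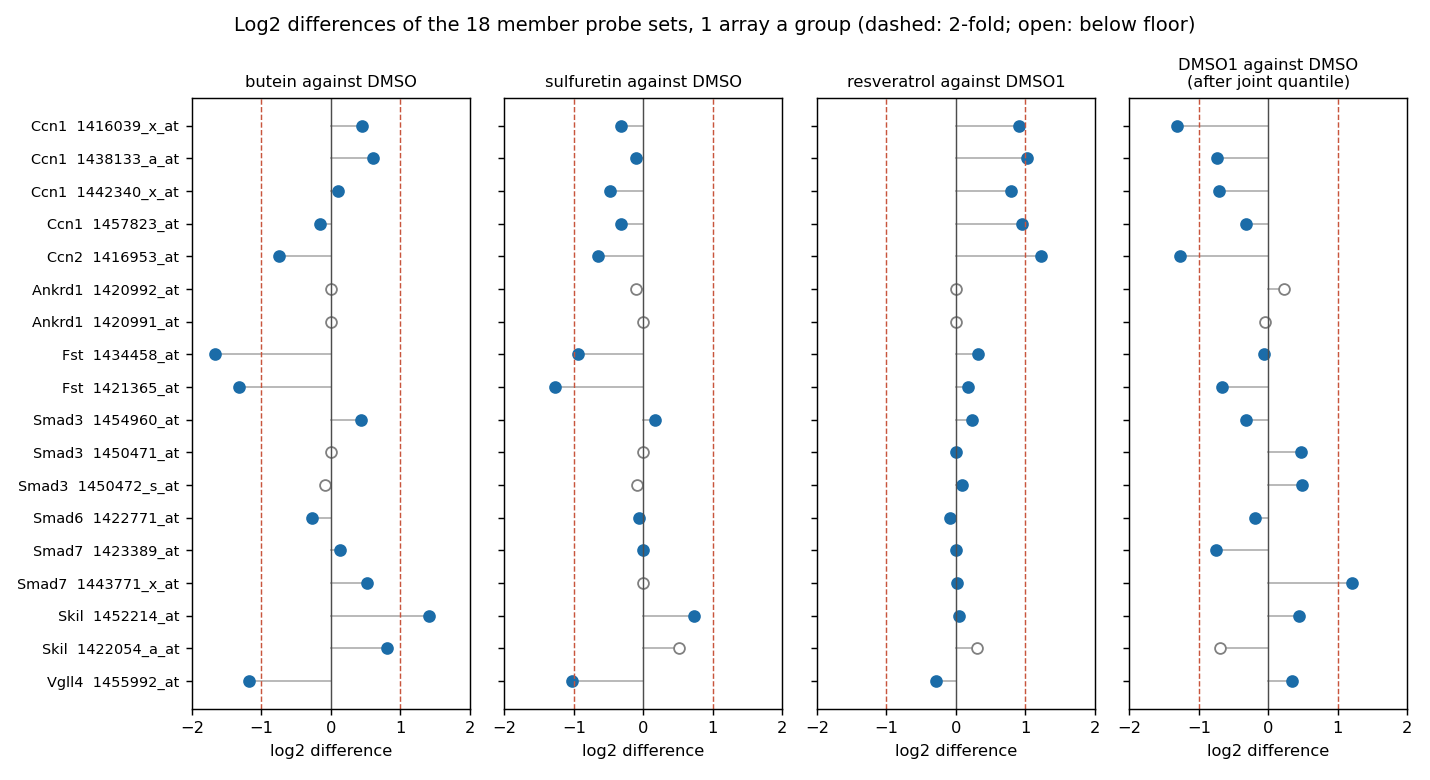
Log2 differences of the 18 probe sets for each treatment against its own solvent array, and for DMSO1 against DMSO after joint quantile normalization; dashed lines mark 2-fold and open points lie below the floor. Past the lines are Fst and Vgll4 to the left with butein and sulfuretin, Skil to the right with butein, and Ccn2 with 1 Ccn1 probe set to the right with resveratrol; the solvent arrays differ past 2-fold for Ccn1, Ccn2 and Smad7 probe sets.

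With limma, which here took DMSO and DMSO1 as replicates of a single solvent group and left 1 residual degree of freedom, no member probe set passed an adjusted p of 0.05 with any compound. The lowest adjusted p of limma among members at the floor was 0.9999 on the deposited values and 0.985 after joint quantile normalization, both in the butein comparison. An unadjusted value under 0.05 was reached on the deposited values by 2 member probe sets with butein, Fst 1434458_at and Vgll4, by 1 with sulfuretin, Vgll4, and by 0 with resveratrol. Over all 45037 probe sets 148 higher and 405 lower reached it with butein, 13 and 302 with sulfuretin, and 296 and 3 with resveratrol. After joint quantile normalization the members were Fst 1434458_at and Vgll4 with both butein and sulfuretin and 0 with resveratrol, beside 447 higher and 160 lower of all probe sets with butein, 62 and 26 with sulfuretin, and 25 and 19 with resveratrol. These p-values borrow the spread between the solvent arrays and assume that the lone treated arrays vary in the same way. Hardly any of all 45037 probe sets passed the adjusted threshold either, so the members are not set apart by missing it. On the deposited values the pooled solvent group mixes arrays of 2 scales, and each treated array is on 1 of them. The balance of higher and lower counts on those values therefore also holds the offset between the scales.

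Butein, a chalcone, and sulfuretin, an aurone in which the bridge of the chalcone is closed into a ring, can be set side by side on the same scale and time, although their doses are not known. In this pair none of the 14 member probe sets at the floor differed by 2-fold, where 1.28% of all probe sets did. The widest differences, sulfuretin minus butein, were -0.76 and -0.71 for the brighter Ccn1 probe sets, 0.72 for Fst 1434458_at and -0.69 for Skil 1452214_at. Sulfuretin was thus nearer to DMSO than butein was for Skil and for that Fst probe set, while on the brighter Ccn1 probe sets the compounds lay on opposite sides of DMSO. On the dimmest Ccn1 probe set, 1457823_at, both were below DMSO (-0.15 with butein and -0.32 with sulfuretin). Fst 1421365_at (0.05), Ccn2 (0.10) and Vgll4 (0.15) were close to equal on these arrays. No interval can be given for any of these differences with 1 array each, so neither difference nor likeness is established.

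The rest of the pathway was read from 117 genes, on the brightest probe set of each. With butein 8 of 101 genes at the floor were at least 2-fold higher and 1 lower, against 2.38% and 0.349% of all genes. With sulfuretin 0 of 100 and with resveratrol 0 of 107 passed, against 0.283% and 0.147% of all genes in either direction. The median over these genes was 0, 0 and 0.03, and that of all genes 0 in each comparison. Sulfuretin against butein left 6 of 101 genes past 2-fold lower and 0 higher, where 1.22% of all genes were lower: Egr1 (6.43-fold), Gadd45a (3.77-fold), Junb (3.75-fold), Tgif1 (3.29-fold), Klf10 (3.06-fold) and Bhlhe40 (2.28-fold), all genes that were past 2-fold higher with butein.

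No ligand or receptor gene at the floor passed 2-fold with any compound. Of 8 ligand genes at the floor none passed with butein, and the widest differences were Tgfb2, a TGF-beta isoform (-0.77), and Bmp4 (-0.49), which encodes a BMP that commits C3H10T1/2 cells to the fat lineage. Inhba, the gene of the activin A subunit that follistatin binds, read 36.6, 29.8, 28.2, 25.8 and 29.6. Of 11 receptor genes none passed in any comparison. Acvr1c, which encodes the adipocyte receptor ALK7, was lower with butein (-0.64, from 12.2 to 7.83) and with resveratrol (-0.75, from 41.1 to 24.5), while Acvr2a, an activin receptor gene, was higher with butein (0.62) and sulfuretin (0.51). Extracellular antagonists and latency proteins had 0 of 9 members past 2-fold with butein or sulfuretin and 0 of 10 with resveratrol. Dcn, the gene of decorin, which can bind TGF-beta, read 105, 59.5, 72.0, 98.7 and 83.8, below its solvent array in all 3 comparisons. Thbs1, whose product thrombospondin 1 can activate latent TGF-beta, read 72.0, 73.0, 70.1, 164 and 260 and had the widest resveratrol difference of the list (0.67).

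Among SMADs, co-repressors and SMAD ubiquitin ligases, 2 of 12 genes were past 2-fold higher with butein: Tgif1, a co-repressor of SMADs like Skil, read 34.1 in DMSO and 176 with butein (5.16-fold), and the ubiquitin ligase gene Nedd4l read 120 and 272 (2.27-fold). With sulfuretin these were 1.57-fold and 1.39-fold higher. The median of the list was 0.26 with butein, 0.13 with sulfuretin and 0.04 with resveratrol, and 10 of 12, 9 of 12 and 9 of 13 members were higher by any amount, where 35.8%, 37.8% and 33.0% of all genes were. Smad4, the common partner SMAD, was among them, reading 279, 381, 308, 419 and 446.

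TGF-beta response genes had 4 of 17 members past 2-fold with butein, all higher, led by Tgif1, the AP-1 gene Junb (3.75-fold) and the zinc finger gene Klf10 (3.47-fold). These are also short-lived transcripts that other stimuli induce. Junb was close to the floor in DMSO, reading 11.2, with 42.0 for butein and 46.8 in DMSO1, which is on the other scale. Butein was thus below DMSO1 for Junb. It was above DMSO1 for Tgif1 (176 and 77.8), Klf10 (106 and 47.1) and Bhlhe40 (281 and 116). Matrix genes of the same list were inside the criterion: Fn1, the fibronectin gene, read 3293 in DMSO and 3308 with butein, and the collagen gene Col1a1 608 and 501. With sulfuretin and resveratrol no member passed, the widest being Id1, an inhibitor of bHLH factors, with sulfuretin (-0.68) and Junb with resveratrol (0.70).

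The Hippo list had 0 of 19 members past 2-fold with butein, the widest being Ptpn14 (-0.60), a phosphatase gene, and Vgll3 (-0.47), a TEAD co-factor gene like Vgll4. The transcripts of YAP and TAZ themselves differed little within each set. Yap1 read 157, 162, 152, 167 and 167, and Wwtr1, the TAZ gene, 175 on each of the first 3 arrays, 234 and 237. Ties such as that of Wwtr1 were common over all probe sets, and their source was not tested. Of 20 YAP response genes at the floor, 2 passed with butein, the stress gene Gadd45a (5.10-fold) and F3, which encodes tissue factor (2.17-fold), and 0 with sulfuretin. Gadd45a read 55.6 in DMSO, 284 with butein and 150 in DMSO1, and F3 read 205, 445 and 319. DMSO was thus the lower solvent array for both, with DMSO1 on the other scale. With resveratrol 0 of 21 passed and the median was 0.06. The other CCN genes did not follow Ccn1 and Ccn2 past the criterion: Ccn3 was 1.55-fold lower with butein, and Ccn4 and Ccn5 were 1.16-fold and 1.10-fold higher with resveratrol.

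**Figure D4:**
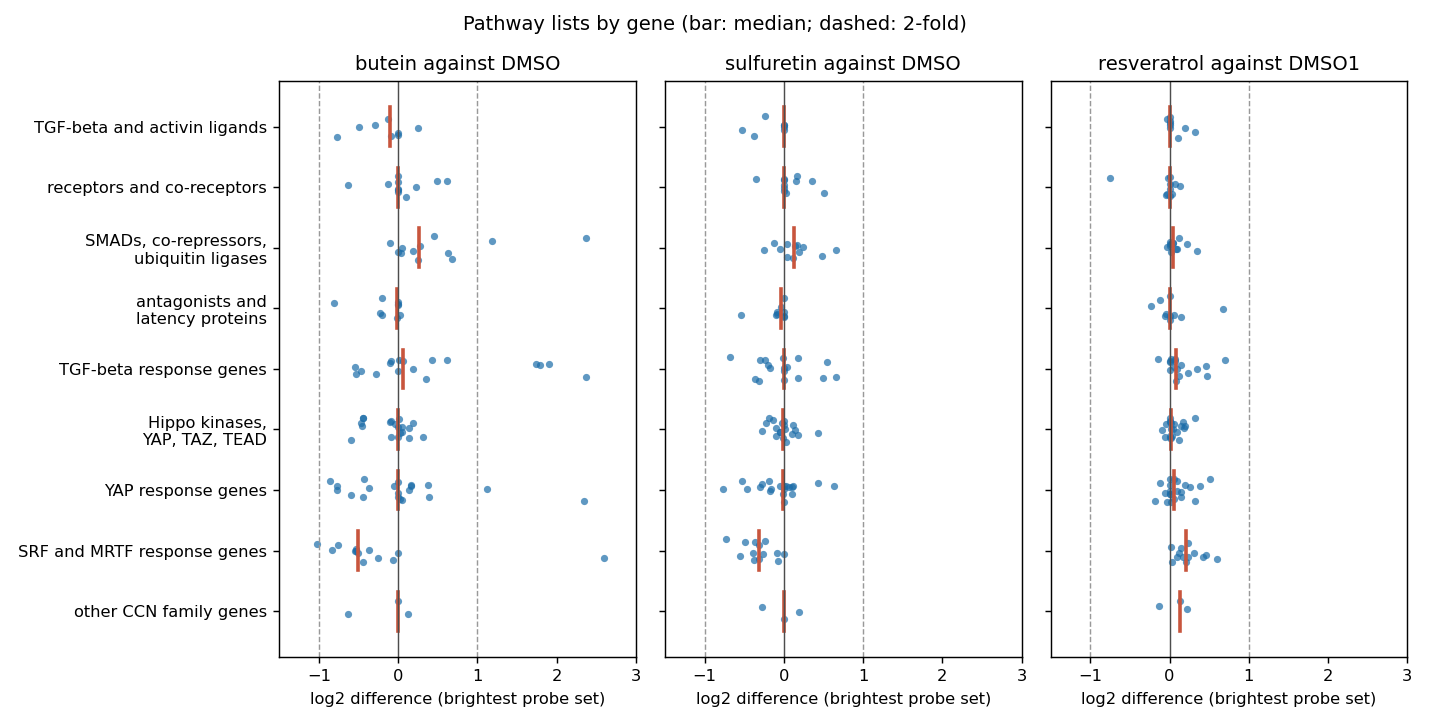
Log2 differences of the pathway genes at the floor, on the brightest probe set of each gene, in 9 lists for each treatment against its own solvent array; red bars are list medians and dashed lines mark 2-fold. Points past 2-fold occur with butein only, and the SRF and MRTF list has the lowest median with butein (-0.51) and sulfuretin (-0.32) and the highest with resveratrol (0.21).

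The widest list medians were those of the SRF and MRTF response genes, mostly cytoskeletal genes switched on by the factor SRF with its MRTF co-activators, which also act on Ccn1 and Ccn2. With butein 11 of 13 genes were lower and 1 higher, with a median of -0.51; with sulfuretin 12 of 13 were lower, with a median of -0.32; with resveratrol 13 of 13 were higher, with a median of 0.21. Over all genes 40.2% were lower with butein, 34.8% lower with sulfuretin and 33.0% higher with resveratrol. Most of these differences were under 2-fold. Myl9, a myosin light chain gene, read 646 in DMSO, 319 with butein and 391 with sulfuretin, and was past the criterion with butein (2.03-fold lower). Egr1, an immediate early gene that SRF shares with other factors, went the other way, 6.05-fold higher with butein.

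Srf itself read 46.4, 31.97, 35.3, 50.1 and 75.8, and its target Fhl2, a LIM domain co-factor gene, 94.3, 55.6, 64.0, 115 and 159. Within each set both were lower with butein and sulfuretin and higher with resveratrol than the solvent array, as Ccn2 was. After joint quantile normalization DMSO1 was the lowest array for Srf, at -0.63 from DMSO beside -0.54 for butein. The smooth muscle actin gene Acta2 read 5495, 3810, 4419, 3250 and 3605. Beside this, the muscle marker Acta1 read 71.1, 45.3, 52.6, 179 and 163 and the summed muscle marker list 145, 117, 125, 280 and 265, with 3 or 4 of its 9 markers at the floor. Acta1 was the brightest marker of that list on every array, so the sum is not a reading separate from Acta1. The fibroblast marker sum was 16183, 15076 and 16038 in the first set and 14866 and 14830 in the second. Of the 3 cartilage and bone markers at the floor, Col2a1 read 44.4, 25.8, 34.6, 51.1 and 51.6 and Sox9 92.3, 68.7, 74.0, 102 and 102. The third, Sp7, read 20.2 on each of the first 3 arrays, 13.4 in DMSO1 and 14.0 with resveratrol. The list medians were -0.43, -0.32 and 0.01 with butein, sulfuretin and resveratrol, the first 2 close in size to those of the SRF list. Those first 2 are the Sox9 values, and the other 2 Sox9 probe sets ranged from -0.18 to 0 with both compounds. Both macrophage and blood cell markers at the floor were lower with butein (median -0.32). All 7 adipocyte markers at the floor were lower with butein (median -0.23, Cidec -0.49, Cebpa -0.47) and with resveratrol (median -0.11), and 3 of 7 with sulfuretin (median 0.00109). These were read on the brightest probe set of each gene. Fabp4 differed there by -0.10 with butein, while its other 3 probe sets ranged from -2.40 to -0.17. The part of these markers in the shift was not tested. With joint quantile normalization and the other solvent array as control the SRF medians were -0.13, -0.13 and 0.05, with 8 of 13 genes lower for butein, 7 of 13 lower for sulfuretin and 8 of 13 higher for resveratrol.

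**Figure D5:**
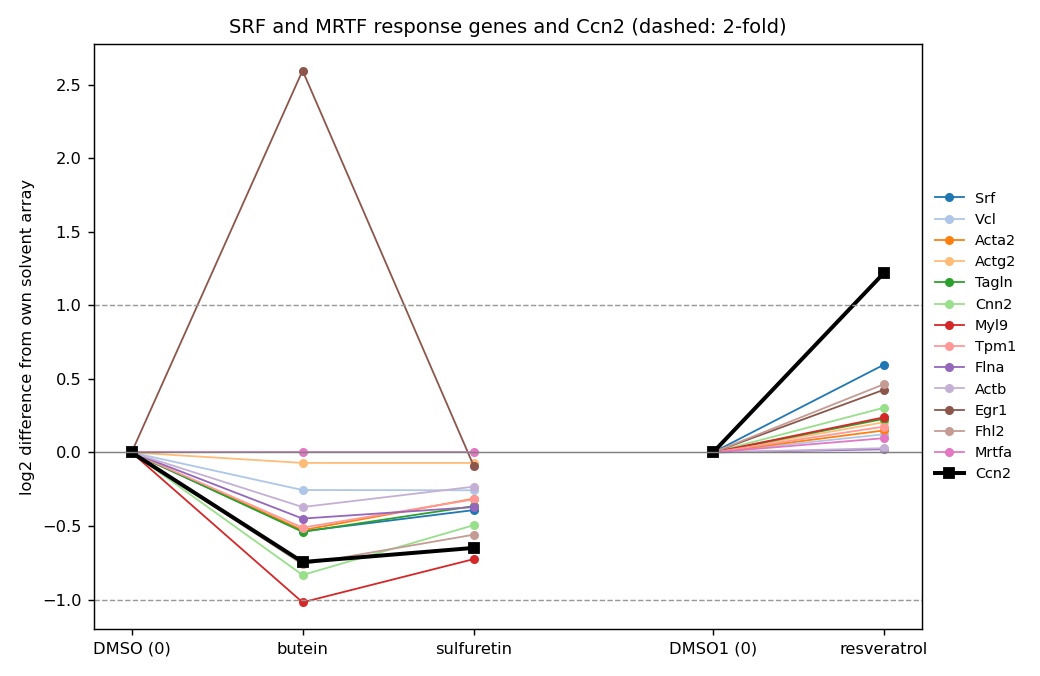
Log2 difference of each SRF and MRTF response gene at the floor, and of Ccn2 (black squares), from its own solvent array, which is set to 0; dashed lines mark 2-fold. Lines run below 0 with butein and sulfuretin and above 0 with resveratrol, apart from Egr1 with butein (2.60) and Mrtfa, which was equal to DMSO with both.

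Likeness of pattern was measured as the Euclidean distance over the 3 log2 differences, each treatment against its own control, among 11799 genes at the floor. Since butein and sulfuretin share a control, the 3 values are not independent. Nearest to Ccn2 were the histone gene H3c11 (distance 0.49), Srf (0.71) and Fhl2 (0.76). Nearest to Ccn1, on 1438133_a_at, were Arid5a (0.33), Hivep3 (0.39) and the AP-1 gene Jund (0.50). For Fst, on 1434458_at, they were Cemip (0.43), Npr3 (0.53) and the actin-binding gene Nexn (0.55). Skil had closer neighbours, Spred2 (0.07), Sap30 (0.13) and Cebpb (0.16), with Cebpb reading 648 in DMSO, 1937 with butein and 1062 with sulfuretin. Vgll4 was nearest to Rgs2 (0.14), a regulator of G protein signalling that read 646 in DMSO, 263 with butein and 305 with sulfuretin, followed by Ldb3 (0.34) and Samd5 (0.38).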

How the data were processed

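Total RNA of 5 groups of differentiated C3H10T1/2 cells, 1 array each, was analysed from the value table. The deposited values are probe set intensities made by the authors with RMA, per the submitters' processing notes; neither its version nor the output scale was found in those notes. Their range shows a linear scale, so log2 was taken without a pseudocount. Sorted log2 values differed by a mean of 0.00741 to 0.0141 within the sets DMSO, butein and sulfuretin, and DMSO1 and resveratrol, and by 0.503 to 0.514 between them.

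Of 45037 probe sets, 34945 name 1 gene; symbols were updated by gene ID through RefSeq (GRCm38.p6). Other genes were read on their brightest probe set, by the mean over the arrays. The members and gene lists were chosen with earlier results of these data known. Named were all members with every probe set, per list up to 3 genes past 2-fold (otherwise up to 2 with the widest difference), and the 3 nearest genes of each called member. Named outside this rule, after their values were seen, were Inhba, Smad4, Fn1, Col1a1, Yap1, Wwtr1, Acta2, Mrtfa, Bhlhe40 and the markers.

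Fold criteria of 1.5 and 3, other floors, a pseudocount of 16, joint quantile normalization, median centring, other solvent controls, leaving out _s_at and _x_at probe sets, and limma were tried. The calling step was tested on simulated data. Software was limma 3.58.1 under R 4.3.3, and numpy 2.4.6 and pandas 2.3.3 under Python 3.11.15, with figures from matplotlib 3.10.9.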

Additional observations from a re-analysis of the deposited data

How the results depend on the processing

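No paired analysis was possible because each group has 1 array and the labels carry no replicate numbers. The counts of member probe sets past the criterion (4 for butein, 2 for sulfuretin, 2 for resveratrol, 0 for sulfuretin against butein) stayed within 1.5 times with no floor, with a floor at percentile 75, with centring and without _s_at and _x_at probe sets. At 1.5-fold they were 7, 5, 5 and 4, and at 3-fold 1, 0 and 0 for the treatments. With a pseudocount of 16 they were 1, 0 and 1. Joint quantile normalization left 1 for sulfuretin. With the other DMSO array as control they were 8, 6 and 6, on a different scale. The mean of both DMSO arrays gave 4 for sulfuretin. The other DMSO array after joint quantile normalization gave 3 higher and 2 lower for butein (from 1 and 3), 2 higher and 2 lower for sulfuretin (from 0 and 2), 4 in all, and 1 for resveratrol. Most of these were other probe sets: Ccn1 1416039_x_at (1.74), Ccn1 1438133_a_at (1.29) and Skil 1422054_a_at (1.70) for butein, Ccn1 1416039_x_at (1.01), Skil 1422054_a_at (1.39) and Smad7 1443771_x_at (-1.20) for sulfuretin, and Smad7 1443771_x_at (1.22) for resveratrol. With limma they were 0, 0 and 0, also after joint quantile normalization. The cause of these shifts was not tested.

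No called member difference changed sign under the settings run; Ccn1 1416039_x_at with resveratrol, not called, did (-0.32). Against the other DMSO array after joint quantile normalization, Fst 1434458_at and Vgll4 kept their calls with butein, as Vgll4 did with sulfuretin, while Ccn2 with resveratrol came to 0.03 and Ccn1 1438133_a_at to 0.41. Counts of pathway genes past 2-fold (9 for butein, 0 for sulfuretin, 0 for resveratrol, 6 for sulfuretin against butein) were equal when all probe sets of each gene were averaged. No other setting was run on these pathway counts, so their dependence on the solvent array and on normalization was not tested. The SRF list was examined under other settings after the data had been seen. Its median ran from -0.61 to -0.13 for butein, -0.48 to -0.13 for sulfuretin and 0.05 to 0.37 for resveratrol. The sign was the same in every setting run. Against the other DMSO array on the deposited scale, however, the median also holds the offset between the scales. There DMSO1 was above DMSO for 87.6% of all genes at the floor, so a kept sign carries no weight. The narrow ends, -0.13, -0.13 and 0.05, came from the other DMSO array after joint quantile normalization. The number of arrays, 1 per group, limits the precision of every value.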
